A study of Mus musculus with 6 samples.

Results

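The genes described here are the ZEB transcription factors Zeb2 and Zeb1 and the antisense gene Zeb2os. They are 3 of 10366 genes with a probe set of their own among the 14610 tested. They were chosen by name, as every probe set whose annotation gives exactly 1 symbol among the 3. Each has 1 probe set (10482448 for Zeb2, 10471945 for Zeb2os and 10453678 for Zeb1), so 3 of the 20220 probe sets in the table are described. Zeb2 is the gene that the study set out to delete, and Zeb1 is its paralogue.

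The arrays labelled Zeb2-KO came from Zeb2Δ/ΔMx1-Cre mice (written Zeb2[delta/delta]Mx1-Cre for replicate 1), which began as Zeb2 fl/flMx1-Cre animals, and the WT arrays came from C57Bl/6 WT mice. Both groups received polyinosinic-polycytidylic acid (pIC), an inducer of interferon, at 6 weeks of age, and marrow was taken 8 weeks later, at 14 weeks. LKS-Slam marker positive cells were then sorted. This gate takes lineage-negative marrow cells with Kit and Sca-1 on their surface, refined with SLAM antigens, and is rich in hematopoietic stem cells. Each group had 3 arrays, 1 per marrow sample, labelled as biological replicates. Mx1-Cre is a recombinase driven by an interferon-inducible promoter, so it acts in interferon-responding cells throughout the marrow and in other tissues, and the share of sorted cells in which the alleles had recombined is not given in the labels. Nor do the labels give the strain background of the Zeb2-KO mice, whether WT mice carried Mx1-Cre, or which part of Zeb2 was removed. Genotype and any difference in strain cannot be told apart.

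ZEB proteins carry a cluster of zinc fingers near each end and a homeodomain-like region between them. They bind E-box sequences with the core CACCT and mostly repress, together with the CtBP corepressors and chromatin enzymes, and ZEB2 also binds activated SMAD proteins. In epithelia they switch off E-cadherin and junction genes during epithelial-mesenchymal transition (EMT), and they and the miR-200 microRNAs repress each other. In blood, ZEB2 is known for its part in the output of stem cells and in the development of monocytes, dendritic cells and natural killer cells.

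The start regions of Zeb2 are shown because the antisense gene lies across some of them. RefSeq (assembly GRCm38.p6) lists 4 start regions for Zeb2, each running from 250 bases before to 50 bases after a transcription start. The gene Zeb2os lies wholly within the span of Zeb2, on its start side, and 2 of the 4 starts, 4.16 and 4.19 kb inside the first one, fall within the span of Zeb2os. These 2 regions overlap almost wholly, so 1 of them is printed with the first and the last. Capitals mark CACCT or its reverse complement AGGTG, searched on both strands.
Zeb2 start region chr2:45117393-45117692, minus strand: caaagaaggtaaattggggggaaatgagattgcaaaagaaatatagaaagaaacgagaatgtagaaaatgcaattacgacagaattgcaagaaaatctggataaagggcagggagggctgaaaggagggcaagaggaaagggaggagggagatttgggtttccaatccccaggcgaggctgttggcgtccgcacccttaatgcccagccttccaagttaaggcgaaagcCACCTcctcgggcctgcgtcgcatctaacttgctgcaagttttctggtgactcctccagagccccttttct
Zeb2 start region chr2:45113230-45113529, minus strand: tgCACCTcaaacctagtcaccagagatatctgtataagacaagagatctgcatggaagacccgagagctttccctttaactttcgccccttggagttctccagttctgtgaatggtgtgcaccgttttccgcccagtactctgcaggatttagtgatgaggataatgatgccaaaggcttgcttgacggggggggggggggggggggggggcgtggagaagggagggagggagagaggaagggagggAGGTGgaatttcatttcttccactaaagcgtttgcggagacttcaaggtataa
Zeb2 start region chr2:45110228-45110527, minus strand: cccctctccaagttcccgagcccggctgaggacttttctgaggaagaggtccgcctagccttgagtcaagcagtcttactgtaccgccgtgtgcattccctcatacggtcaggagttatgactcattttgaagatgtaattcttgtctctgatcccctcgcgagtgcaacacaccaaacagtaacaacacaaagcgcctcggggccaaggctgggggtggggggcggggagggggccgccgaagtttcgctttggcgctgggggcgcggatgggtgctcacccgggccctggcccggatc
CACCT in either orientation was found in 3 of the 4 regions, and in 51.9% of 32851 regions of the same length over all genes. The 2 overlapping regions share 1 such site, which is counted in each, so the 3 regions are not independent. The longer CACCTG, which contains CACCT, and its reverse complement CAGGTG were in none of the 4, against 20.2% of all regions. GC content was 49.3% in the first region and 60.7% in the last, where the median region had 52.7%.

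The targeted gene was the first item checked. Zeb2 had log2 intensities of 7.79, 9.13 and 8.96 for arrays 1 to 3 labelled Zeb2-KO, against 6.58, 7.51 and 7.34 in WT. Every array labelled Zeb2-KO lay above every WT array, so the probe set of the deleted gene was brighter, not dimmer, under the label of its deletion. On the linear scale of the deposited table these values are 222, 561 and 498 under the Zeb2-KO label and 95.8, 182 and 162 in WT. The lowest array labelled Zeb2-KO, replicate 1, exceeded the highest WT array, replicate 2, by 0.29 (log2).

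The group difference was 1.48 (SE 0.40, 95% interval 0.59 to 2.38), or 2.80-fold with an interval of 1.51 to 5.19. It did not pass the test (limma, Benjamini-Hochberg adjusted p = 0.581 over 14610 probe sets). That threshold was passed by 0.0137% of all probe sets tested (2 probe sets), and neither is a ZEB probe set. By unadjusted p, Zeb2 ranked 94 and by size of rise 109 among the 14610. A probe set outside the deleted part would not report the deletion, and the position of its probes is not given in the sources used here. The labels therefore stand unchecked, and all directions below follow the labels.

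Zeb2os encodes a long noncoding RNA that has been described in human cells as overlapping a splice site near the start of ZEB2, where it favours production of the protein. Its log2 intensity came to 6.36, 7.21 and 6.56 in the arrays labelled Zeb2-KO, against 5.70, 5.79 and 5.52 in WT. The groups were again apart, by 0.57 between the lowest array labelled Zeb2-KO and the highest WT array, and the WT arrays lay close together. The difference was 1.04 (SE 0.31, 95% interval 0.36 to 1.72), or 2.06-fold, and limma gave it an adjusted p of 0.606, short of the threshold. The mean of this probe set over all arrays, 6.19, lay below that of the median probe set (6.63). The genes overlap on opposite strands, and whether each probe set reads its own strand alone was not tested.

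Zeb1 encodes the other ZEB repressor. It had log2 intensities of 7.48, 8.28 and 8.32 in the arrays labelled Zeb2-KO, against 6.53, 7.70 and 8.51 in WT. The groups overlapped, and both the lowest and the highest array of all were WT arrays. The WT range of 1.98 was more than the group difference of 0.44 (SE 0.47, 95% interval -0.59 to 1.47, limma adjusted p = 0.681). The difference reversed to -0.082 without WT replicate 1, and it was 0.91 without WT replicate 3. The interval reaches from a fall to a rise of nearly the size seen for Zeb2, so the data do not show that Zeb1 was alike in the groups.

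**Figure D1:**
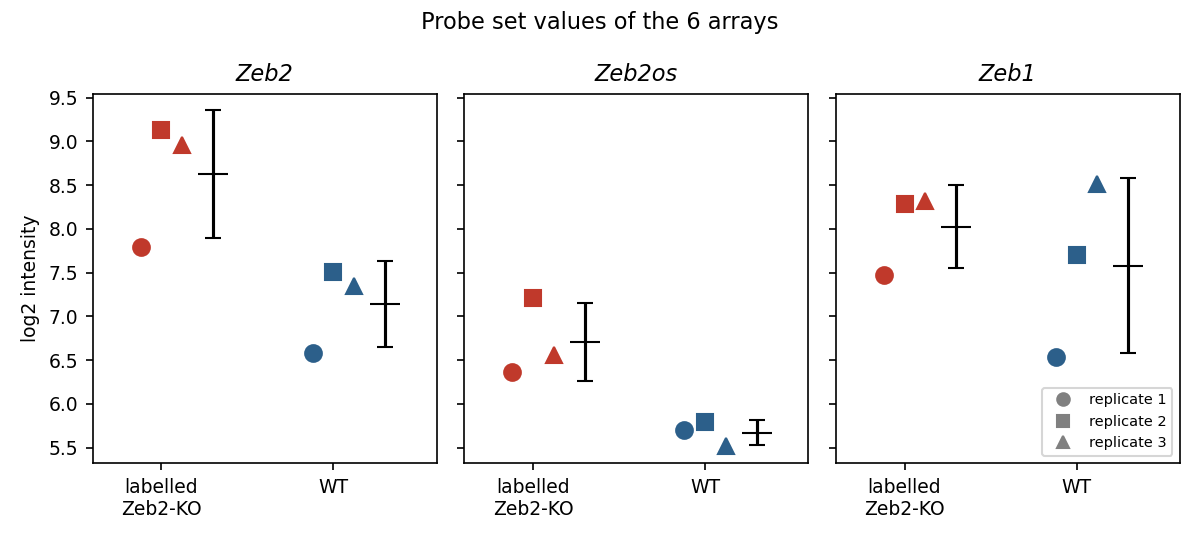
Log2 intensity of the Zeb2, Zeb2os and Zeb1 probe sets in each array, with the arrays labelled Zeb2-KO in red and WT in blue, symbols by replicate number, and black bars for mean ± SD of 3 arrays. Groups are apart for Zeb2 and Zeb2os and overlap for Zeb1, and replicate 1 is the lowest array of its group for Zeb2 and Zeb1.

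All 3 genes had a difference above 0, as had 44.6% of probe sets tested, and Zeb2 and Zeb2os one of at least 1, as had 3.5%. Both also had an unadjusted p under 0.01, as had 1.56% of all. At an unadjusted p under 0.05, Zeb2 and Zeb2os were higher, as were 5.69% of all probe sets tested. The same 2 had no overlap between groups with the arrays labelled Zeb2-KO above, a pattern found in 6.9% of all probe sets. Taken per array, the log2 value of Zeb2 minus that of Zeb1 came to 0.32, 0.85 and 0.64 in the arrays labelled Zeb2-KO, against 0.050, -0.19 and -1.17 in WT. Zeb2 thus stood higher relative to Zeb1 in every array labelled Zeb2-KO than in any WT array, with a difference of 1.04. The exact two-sided permutation test gave p = 0.1, the smallest that 3 arrays against 3 can give. Without WT replicate 3 the difference was 0.67. Zeb2 minus Zeb2os came to 1.43, 1.92 and 2.40 in the arrays labelled Zeb2-KO, against 0.88, 1.71 and 1.83 in WT. These groups overlapped, with a difference of 0.44 (exact permutation p = 0.4), so unequal changes of the gene and its antisense gene were not shown. That difference was 0.14 without WT replicate 1 and 0.20 without Zeb2-KO replicate 3.

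Replicate 1 of each group, the lowest array of its group for Zeb2, had the strongest signal of 3 Y-linked genes, at a mean log2 intensity of 6.17 in the array labelled Zeb2-KO and 5.13 in the WT array, where the other 4 arrays ran from 3.82 to 4.03. The X-linked gene Xist was lowest in the same arrays, at 8.15 in the array labelled Zeb2-KO and 9.70 in the WT array. Elsewhere it ran from 10.70 to 11.09, and in both replicate 1 arrays it lay above the array's median. The sex of the mice is not in the labels, and what gave both signals was not tested. Without both replicate 1 arrays the Zeb2 difference was 1.62 (SE 0.27, limma adjusted p = 0.421), that of Zeb2os 1.23 and that of Zeb1 0.19.

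Within each group, the arrays ranked by Zeb2 as they did by their overall spread. The interquartile range of log2 values came to 1.83, 2.40 and 2.11 in the arrays labelled Zeb2-KO, against 1.59, 2.03 and 1.77 in WT. Adding this range to the model gave Zeb2 a difference of 0.77 (SE 0.30, adjusted p = 0.972), Zeb2os one of 0.71 (SE 0.26) and Zeb1 a reversed one of -0.11 (SE 0.59). With arrays weighted by their quality, for which limma did not converge and which gave a single array labelled Zeb2-KO, replicate 3, a weight of 8.22 where the others had 0.38 to 1.89, Zeb2 and Zeb2os passed at 1.67 (adjusted p = 0.0181) and 1.0 (adjusted p = 0.0296). Under that weighting 978 probe sets passed in all, among them those of Arhgap15, Krt18 and Sparc, described below, and 5 B cell and 5 megakaryocyte markers.

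**Figure D2:**
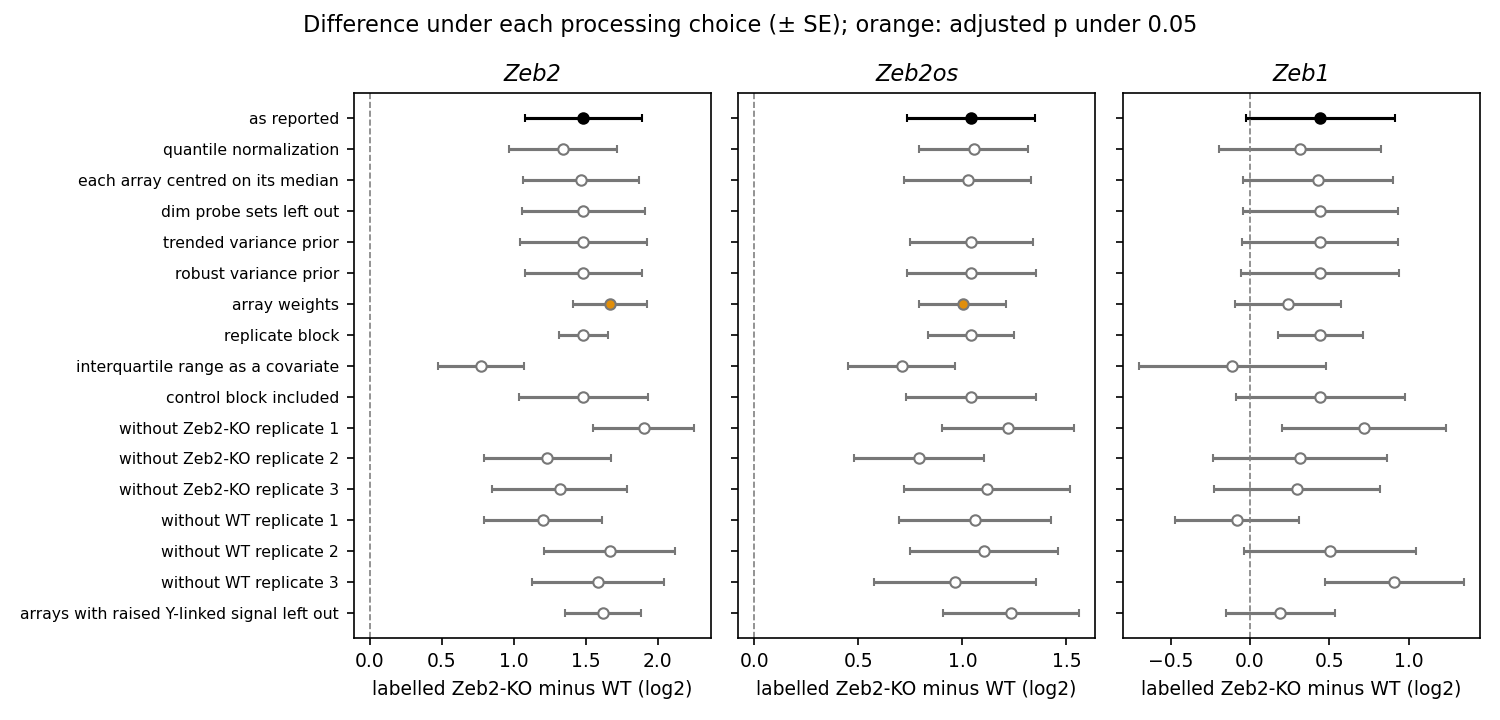
Difference (labelled Zeb2-KO minus WT, log2, points, with SE as bars) for each gene under each processing choice, with the reported fit in black and values at an adjusted p under 0.05 in orange. Zeb2 and Zeb2os stay above 0 throughout, from 0.77 to 1.90 and from 0.71 to 1.23, while Zeb1 runs from -0.11 to 0.91.

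Genes beside Zeb2 on the chromosome had differences in both directions. The 4 nearest measured genes on each side, in the gene order of RefSeq, were compared, and none of the 8 passed the test. Arhgap15, a GTPase-activating protein for Rac that lies on the far side of Gtdc1 from Zeb2, had log2 intensities of 7.48, 7.70 and 7.30 in the arrays labelled Zeb2-KO, against 8.59, 8.49 and 8.49 in WT. It was the neighbour with the smallest unadjusted p, with groups apart and a difference of -1.03 (SE 0.27, limma adjusted p = 0.563). Its difference ran only from -0.94 to -1.13 over the fits that left out 1 array, and it was -1.08 with array spread in the model. With array weights it passed, at -1.17 (limma adjusted p = 0.0186).

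The gene next to the end of Zeb2, Gtdc1, had values of 5.53, 6.22 and 5.64 in the arrays labelled Zeb2-KO, against 8.19, 6.65 and 5.53 in WT. These overlapped, and the difference of -1.0 rested largely on WT replicate 1, without which it was -0.30, while without WT replicate 3 it was -1.63. Kynu, the kynureninase gene of tryptophan breakdown, had a difference of -0.65 with groups apart, and of -0.29 (SE 0.20) with array spread in the model. On the start side, Acvr2a, an activin receptor, was nearest, with a difference of -0.082 and overlapping groups. Orc4, a subunit of the origin recognition complex, and Mmadhc, of cobalamin metabolism, had differences of 0.63 and 0.73 with groups apart. For Mmadhc the lowest array labelled Zeb2-KO was 8.03 and the highest WT array 8.02. Its difference came to 0.41 with WT replicate 1 left out, 0.47 with Zeb2-KO replicate 2 left out and 0.17 with array spread in the model, and that of Orc4 was 0.41 with quantile normalization. The bitter taste receptor gene Tas2r134 had a difference of -0.45, of -0.29 with quantile normalization and of -0.21 with array spread in the model. Its values, 3.79 to 3.99 in the arrays labelled Zeb2-KO and 3.99 to 4.60 in WT, and those of Kynu are dimmer than the median probe set (6.63). In all, 5 of the 8 neighbours had groups without overlap, 2 higher and 3 lower, where 13.2% of all probe sets did in either direction. Arhgap15 and Orc4, 2 of the 8, had an unadjusted p under 0.05, as did 7.02% of all probe sets.

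**Figure D3:**
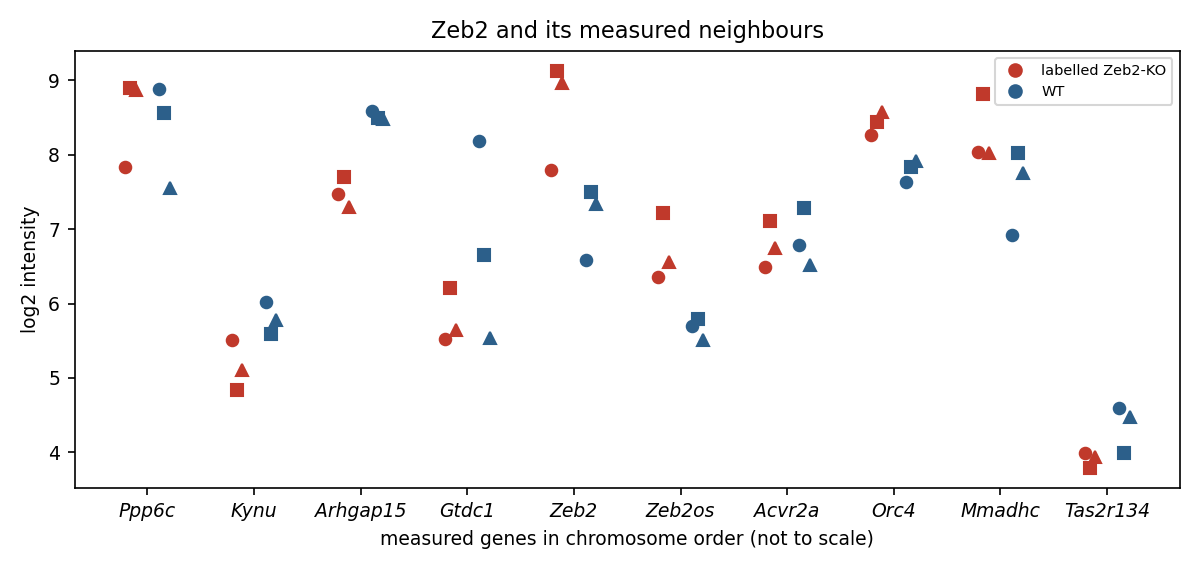
Log2 intensity in each array (red, labelled Zeb2-KO; blue, WT; symbols by replicate number) for Zeb2, Zeb2os and the 4 nearest measured genes on each side in chromosome order, not to scale. Zeb2 and Zeb2os are brighter in every array labelled Zeb2-KO, and Arhgap15, Kynu and Tas2r134 dimmer in every one.

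Of the genes with which ZEB proteins are known to work, none passed the test over all probe sets. Among corepressors and cofactors, 16 of 26 were measured, and 15 of these had a difference above 0, with a median of 0.21 (all genes: 45.7% above 0 and a median of -0.074). All 16 are at least as bright on average as the median probe set, and 66% of all genes that bright had a difference above 0, with a median of 0.20. With quantile normalization 10 of 16 were above 0 and with array spread in the model 9 of 16. The histone deacetylase gene Sirt1 had the smallest p, with 7.26, 7.69 and 6.97 in the arrays labelled Zeb2-KO against 6.19, 7.24 and 6.12 in WT, a difference of 0.79 (SE 0.37). Kat2b, a histone acetyltransferase, had a difference of 0.51 with groups apart, and the demethylase gene Kdm1a and the NuRD subunit gene Mta1 had 0.56 and 0.44. With array spread in the model these differences were 0.33 (Sirt1), 0.34 (Kat2b), 0.32 (Kdm1a) and 0.15 (Mta1). With array weights Kdm1a had 0.24 and Mta1 0.17, with quantile normalization 0.34 and 0.26, and Mta1 had 0.16 without WT replicate 1. The CtBP genes have no probe set of their own among those tested.

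SMAD proteins carry the TGF-beta and BMP signal to the nucleus, and 5 of 8 genes were measured, 2 with a difference above 0 and 3 below (median -0.13). Smad2 and Smad5, both receptor-activated, had differences of 0.35 and 0.31. Smad3, also receptor-activated, had -0.13, the shared partner Smad4 -0.15 and the inhibitory Smad6 -0.40. Groups overlapped for all 5. The list's median was 0.18 without Zeb2-KO replicate 1.

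Among epithelial genes that ZEB proteins repress, 12 of 32 were measured, 4 with a difference above 0 and 8 below, with a median of -0.21. The 4 above 0 had the smallest p of the list. Krt18, a keratin of simple epithelia, had log2 intensities of 9.09, 8.33 and 9.0 in the arrays labelled Zeb2-KO, against 7.32, 7.90 and 7.55 in WT. Its groups were apart, with a difference of 1.22 (SE 0.32, limma adjusted p = 0.563), and it passed with array weights, at 1.38 (limma adjusted p = 0.0186). Tjp1, a scaffold of tight junctions, had 8.38, 8.07 and 7.53 in the arrays labelled Zeb2-KO, against 6.45, 7.63 and 6.43 in WT. The groups overlapped through WT replicate 2, with a difference of 1.16 (SE 0.39, limma adjusted p = 0.633). The tight junction gene Marveld2 had a difference of 0.61 and the adhesion molecule gene Epcam one of 0.44, Epcam with groups apart. These were 0.25 for Marveld2 with array spread in the model and 0.26 for Epcam with array weights.

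The 8 epithelial genes below 0, among them the claudin genes Cldn4 and Cldn7 and the transcription factor genes Grhl2 and Ovol1, had differences from -0.33 to -0.035 and overlapping groups. All 8 have probe sets dimmer than the median one, as do 9 of the 12, and the 3 brighter ones all had a difference above 0. Among all genes dimmer than the median probe set, 24.9% had a difference above 0, with a median of -0.24, against 66% of the brighter genes. With array spread in the model, 11 of the 12 had a difference above 0 and the list's median was 0.13. In that fit the median over all probe sets tested was -0.0067, against -0.089 in the reported fit. The shares of 24.9% and 66% belong to the reported fit, and the matching shares with array spread in the model are not given here. E-cadherin (Cdh1) has no probe set of its own among those tested and was not analysed here.

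Of mesenchymal genes, 14 of 22 were measured, 4 with a difference above 0 and 10 below (median -0.27), 6 of these 10 with dim probe sets. Sparc, a matrix protein, had 6.57, 6.67 and 6.47 in the arrays labelled Zeb2-KO, against 6.95, 7.27 and 8.47 in WT. Groups were apart with a difference of -0.99 (SE 0.39, limma adjusted p = 0.662), and the difference was -0.54 without WT replicate 3. With array weights it passed, at -1.51 (limma adjusted p = 0.0259). The integrin subunit gene Itga5 had 0.60 with groups barely apart (0.39 without WT replicate 1). Its lowest array labelled Zeb2-KO was 7.09 and its highest WT array 7.08. The growth factor gene Tgfb1 had 0.49, the collagen gene Col3a1 -0.42 and Vim, the mesenchymal intermediate filament, -0.37. Among other EMT transcription factors, 7 of 15 were measured, 2 above 0 and 5 below, 4 of these 5 with dim probe sets. Klf8, a zinc finger repressor, had the smallest p with a difference of 0.69, and Twist1 had -0.34, Snai1 -0.17 and Snai2 -0.036. With array spread in the model 5 of the 7 were above 0 (median over all probe sets tested -0.0067).

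Genes that encode other proteins with both zinc fingers and homeodomains, or related to them, were measured for 6 of 12 symbols. Of these, 2 were above 0 and 4 below (median -0.18), 3 of the 4 with probe sets dimmer than the median one. Among all genes that dim, 24.9% were above 0. Tshz1 had a difference of 0.47 and Zfhx4 one of -0.42, both with groups apart, and Adnp2 had 0.38 and Zhx2 -0.33. Of genes tied to ZEB2 in studies of blood cells, 13 of 23 were measured, 5 above 0 and 8 below (median -0.24). Of these 8, 4 have dim probe sets. S1pr5, a receptor for leaving the marrow in natural killer cells, had 6.51, 6.27 and 6.48 in the arrays labelled Zeb2-KO, against 6.83, 6.83 and 6.85 in WT. Groups were apart with a difference of -0.42 (SE 0.27). Irf8, a factor of monocytes and dendritic cells, had -0.42, the cytokine receptor subunit gene Il6st 0.39, Gata2 0.35 and the chemokine receptor gene Cxcr4 -0.28. Id2, which ZEB2 represses in dendritic cell precursors, had 4.28, 4.64 and 4.09 in the arrays labelled Zeb2-KO against 4.58, 4.60 and 4.43 in WT, with overlapping groups and a difference of -0.20.

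**Figure D4:**
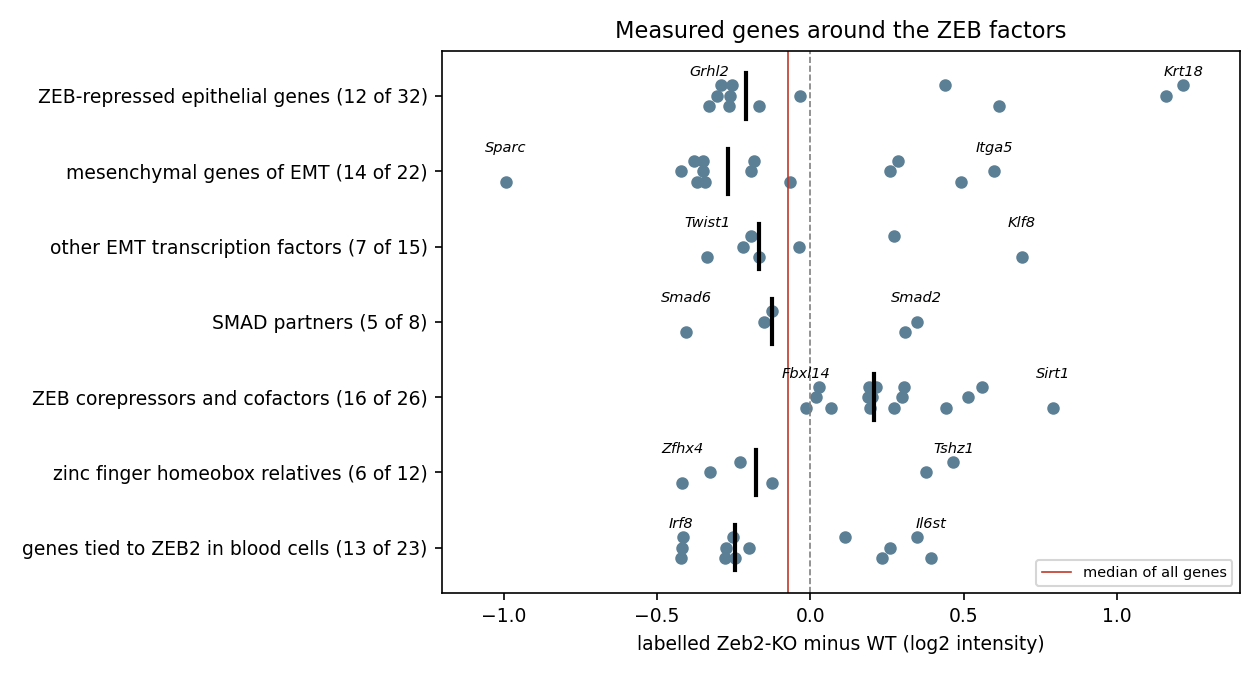
Difference (labelled Zeb2-KO minus WT, log2) for each measured gene of 7 lists, 1 point per gene, with the list's median as a black bar, the median of all genes as a red line (-0.074), and the lowest and highest gene of each list named. Of these lists, the corepressors alone have a median above 0 (0.21). All 16 of them are at least as bright as the median probe set, and all genes that bright have a median of 0.20.

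The miR-200 family is shown because its members bind the transcripts of both Zeb2 and Zeb1. Its 5 microRNAs fall into 2 groups by seed (bases 2 to 8, in capitals, from RefSeq), AACACUG in the first pair and AAUACUG in the other three. Positions in assembly GRCm38.p6 lie on chromosomes 4 and 6.
mmu-miR-200a-3p: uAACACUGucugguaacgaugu
mmu-miR-141-3p: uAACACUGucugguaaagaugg
mmu-miR-200b-3p: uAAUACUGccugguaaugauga
mmu-miR-200c-3p: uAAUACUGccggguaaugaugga
mmu-miR-429-3p: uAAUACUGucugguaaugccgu
Only the entry for Mir200b, at 5.28, 4.51 and 4.38 in the arrays labelled Zeb2-KO against 4.69, 4.33 and 4.89 in WT, had a probe set of its own. The groups overlapped, with a difference of 0.087 (SE 0.33). Mir205, an unrelated microRNA that also represses ZEB genes, had a difference of -0.26. A probe set on a gene array reads the longer precursor transcript at best, not the mature microRNA.

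Among the genes with a probe set as bright as the median or brighter, those with the profile most like each ZEB gene were found by the root mean square difference over the 6 arrays, after each probe set was centred on its own mean. Nearest to Zeb2 were Rab5if (0.19), the small GTPase gene Arl3 (0.22), the lysosomal membrane gene Lamp1 (0.22), the ubiquitin pathway gene Ube2v2 (0.22) and the nucleolar ATPase gene Nvl (0.24), where the median gene differed by 0.81. Their own differences between groups ran from 1.07 (Lamp1) to 1.48 (Arl3), which follows from the choice by profile over the same arrays. Nearest to Zeb2os were the mitotic spindle gene Dlgap5 (0.10), the proton pump gene Atp6v1c1 (0.13), the nuclear pore gene Nup50 (0.14), D16Ertd472e (0.14) and the proteasome gene Psmd2 (0.16), with a median of 0.60 over all.

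Nearest to Zeb1 were the cyclophilin gene Ppic (0.089), Snapc3 (0.11) of small nuclear RNA transcription, Dph6 (0.13), the mitochondrial folate gene Mthfd1l (0.15) and Zgrf1 (0.15), with a median of 0.72. Like Zeb1, each of these 5 was lowest in WT replicate 1, as the choice by profile makes likely. Zeb2os differed from Zeb2 by 0.46, the place of rank 242 among 11228 other probe sets with 1 symbol, and Zeb1 differed from Zeb2 by 0.66, at rank 1616. The arrays are few and share processing, and these are descriptions of 6 values per gene.

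**Figure D5:**
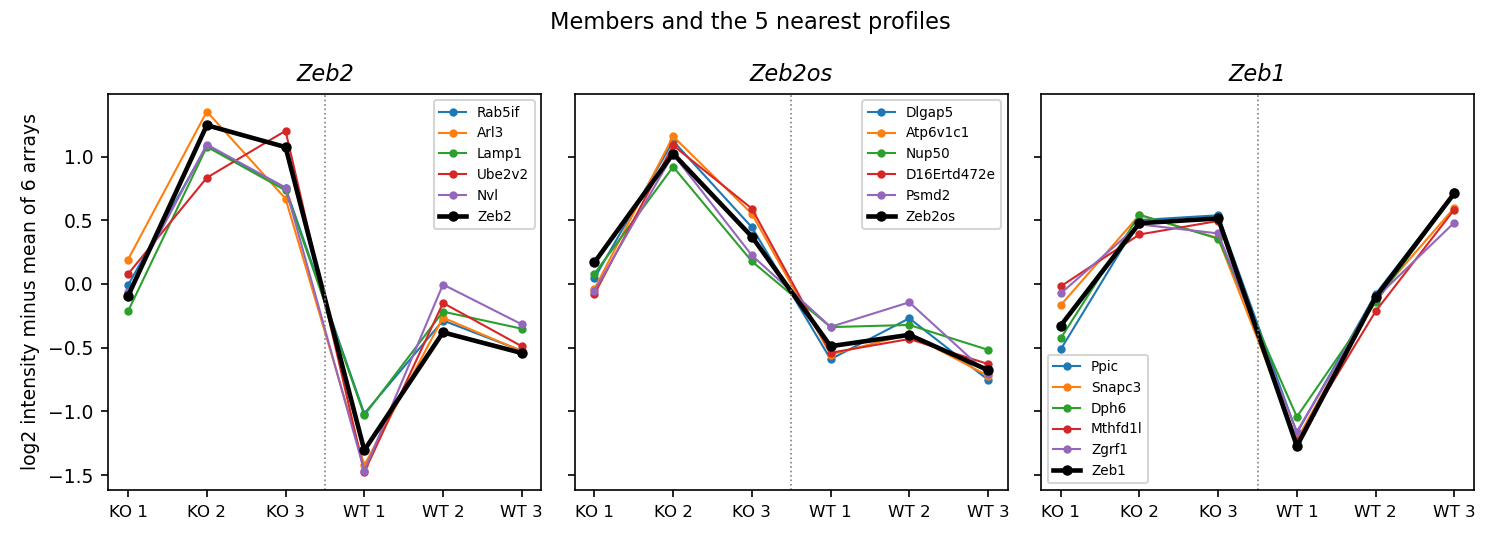
Log2 intensity minus the mean of the 6 arrays for Zeb2, Zeb2os and Zeb1 (black) and the 5 genes nearest to each (colours), with arrays labelled Zeb2-KO left of the dotted line and WT right of it. Zeb2 and its nearest genes are lowest in WT replicate 1, and Zeb1 spans 1.98 within WT.

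Genes of the gate differed between arrays. Kit had log2 intensities of 10.14, 10.17 and 10.23 in the arrays labelled Zeb2-KO, against 9.0, 10.06 and 9.89 in WT, and Slamf1 (CD150) had 8.31, 9.01 and 8.30 in the arrays labelled Zeb2-KO, against 5.76, 8.02 and 7.94 in WT. In WT replicate 1 Slamf1 lay below that array's median of 6.61. WT replicate 1 was the lowest array for both genes, and it was also the lowest for Zeb2 and Zeb1 and the one least correlated with the others (mean r 0.841, others 0.887 to 0.908 over probe sets). Cd48, which stem cells of this gate lack, had 6.79, 6.86 and 5.72 in the arrays labelled Zeb2-KO, against 7.19, 7.70 and 7.55 in WT. All 3 WT values lay above the median of their array. So did those of Zeb2-KO replicates 1 and 2 (medians 6.62 and 6.63), while Zeb2-KO replicate 3 lay below its median of 6.60. Of 14 measured stem cell genes out of 21, 8 had a difference above 0 and 6 below. Groups were apart for 5 of the higher and 2 of the lower, where 13.2% of all probe sets were apart in either direction. Mllt3, with the smallest p of the list, had a difference of 0.86 with groups apart. Ctnnal1 had 1.19 with overlapping groups. Among the lower genes, Procr had -0.45 with groups apart and Cd34 -0.69 with overlap. Ly6a, which encodes Sca-1, was not analysed here.

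Marker lists of other cells, some of which express Zeb2 strongly, were set beside it. Over all genes, 45.7% had a difference above 0. The share was 66% of genes at least as bright as the median probe set and 24.9% of dimmer ones. Of monocyte and macrophage markers, 11 of 18 were measured, 9 of them with a lower mean, with a summed intensity of 898 to 1368 in the arrays labelled Zeb2-KO against 1283 to 1702 in WT. All 6 measured of 14 plasmacytoid dendritic cell markers were lower (577 to 760 in those labelled Zeb2-KO, 763 to 1010 in WT), and of 9 measured of 17 natural killer and T cell markers 4 were higher and 5 lower (463 to 865 in those labelled Zeb2-KO, 480 to 590 in WT). Of the lower monocyte markers 6 have probe sets dimmer than the median one, as have 4 of the 6 plasmacytoid dendritic cell markers. All 13 measured of 16 B cell markers were lower (1214 to 2012 in those labelled Zeb2-KO, 2106 to 3975 in WT), 4 of them with dim probe sets. With array spread in the model, 6 of 11 monocyte, 1 of 6 plasmacytoid dendritic cell and 2 of 13 B cell markers were above 0. In that fit the median over all probe sets tested was -0.0067, against -0.089 in the reported fit. Of megakaryocyte markers 10 of 11 measured out of 17 were higher (3526 to 6518 in those labelled Zeb2-KO, 1281 to 2242 in WT), and of erythroid markers 6 of 8 measured out of 15 (3180 to 3593 in those labelled Zeb2-KO, 1180 to 1542 in WT). Of 5 measured of 15 neutrophil markers 3 were higher (413 to 1406 in those labelled Zeb2-KO, 320 to 374 in WT), and of 11 measured of 17 stromal and endothelial markers 2 were higher (1151 to 1284 in those labelled Zeb2-KO, 1018 to 1287 in WT). Dim probe sets make up 6 of these 11, and 5 of the 6 were lower.

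Some of these sums rest on 1 gene. Fap, a fibroblast surface protease, made up 30.0% to 36.4% of the stromal sum in the arrays labelled Zeb2-KO and 3.44% to 4.57% in WT. Without it the sum was 732 to 899 in the arrays labelled Zeb2-KO and 971 to 1237 in WT, lower in each array labelled Zeb2-KO. Car2, a carbonic anhydrase, made up 66.5% to 78.5% of the erythroid sum in the arrays labelled Zeb2-KO and 33.5% to 63.6% in WT. Without it the sum was 710 to 1203 in the arrays labelled Zeb2-KO and 551 to 784 in WT, and the groups overlapped.

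Without S100a9, a calprotectin subunit gene and the brightest neutrophil marker, that sum was 263 to 437 in the arrays labelled Zeb2-KO and 235 to 262 in WT. The monocyte and the natural killer and T cell sums overlapped between groups both with and without their brightest gene. The plasmacytoid dendritic cell sums overlapped only without it, and with it the highest array labelled Zeb2-KO was 760 and the lowest WT array 763. The B cell and megakaryocyte sums did not overlap either way. The single marker that passed the test was Fap (difference 3.26, limma adjusted p = 0.00133). It did not pass with the replicate block (limma adjusted p = 0.129), with array spread in the model (0.102) or without the arrays of raised Y-linked signal (0.0713), where its difference was 3.08 to 3.26. An array gives no true zero, so none of these markers can be called absent. In sorted bulk cells, fewer cells of a type and less RNA per cell cannot be told apart, and the part of such cells in the ZEB values was not tested.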

How the data were processed

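RNA of sorted LKS-Slam cells was amplified with an Ovation Pico kit, biotin-labelled and hybridised to Affymetrix arrays, per the labels' protocols and the series' design text. The submitters' processing notes name RMA, with no version. The deposited intensity values, 1 per probe set and array, span a range that only a linear scale gives, and were turned into log2 values. Median intensities ran from 94.3 to 99.2 over the arrays. The number of arrays limits the precision. The 5610 probe sets numbered below the first annotated one were left out as a control block, and 14610 were tested. Of these, 11229 have 1 symbol in the platform annotation, 766 several and 2615 none, and symbols were updated by gene identifier from a RefSeq table (GRCm38.p6).

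Groups came from the titles. The fit was limma 3.58.1 in R 4.3.3 (lmFit, eBayes; residual degrees of freedom 4, prior 6.87). P-values were adjusted by Benjamini-Hochberg across the 14610, and 0.05 was the threshold. The fit was tested on simulated data with known changes. Lists used 1 probe set per gene, the brightest, and got no test. Genes, lists and tests were chosen with earlier results of these data known. Named genes are the ZEB genes, 4 neighbours per side, the 5 nearest profiles each, up to 4 list genes by p, and a preset few, among them Slamf1, Kit, Cd48, Id2, Cxcr4, Vim and the SMAD genes. Grhl2, Cldn4, Cldn7, Ovol1, Procr, Cd34, Car2, S100a9 and Xist were named after their values were seen. Alternatives were quantile normalization, median centring, a filter on dim probe sets, other variance priors, array weights, a replicate block, the array spread as a covariate, the control block included, and arrays left out. Sums without the brightest gene of a list were added after seeing the data.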

Additional observations from a re-analysis of the deposited data

How the results depend on the processing

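With 3 arrays a group, the limma fit called 2 probe sets. It called 978 with array weights, 1 with dim probe sets left out, 0 with the replicate block (2595 at an unadjusted p under 0.05), 1 with array spread as covariate, and 1 without the arrays of raised Y-linked signal. Leaving out 1 array gave 2 to 18. Zeb2 was higher in all 16 alternatives (0.77 to 1.90; 1.20 to 1.90 with 1 array left out, adjusted p 0.195 to 0.978) and Zeb2os in all 15 (0.71 to 1.23; 0.79 to 1.22), and each passed the threshold with array weights alone, at 1.67 and 1.0. Zeb1 was higher in 14 of 16 (-0.082 to 0.91 with 1 array left out) and reversed to -0.11 with spread as covariate. Deviations from the group mean correlated at 0.36, 0.41 and 0.047 between arrays of equal replicate number. Between arrays of unequal number the correlations ran from -0.38 to 0.030. Whether arrays of equal number were handled together was not tested. With the replicate block the SE of the Zeb2 difference was 0.17, against 0.40 in the reported fit. The limma adjusted p with that block was 0.277 for Zeb2, 0.277 for Zeb2os and 0.349 for Zeb1. Ppp6c reversed to -0.046 with quantile normalization and -0.12 with spread as covariate, and ran from -0.19 to 0.55 with 1 array left out. Acvr2a reversed to 0.052 with array weights and 0.026 without the Y-linked arrays, and ran from -0.26 to 0.13 with 1 array left out. Of 136 recomputed list medians, 106 moved by less than the replicate spread. With spread as covariate the medians were 0.13 (epithelial), -0.046 (mesenchymal), 0.11 (other EMT factors), 0.17 (zinc finger homeobox), -0.066 (blood), -0.23 (B cell), -0.16 (plasmacytoid dendritic), 0.043 (monocyte), 0.047 (natural killer and T), 0.40 (erythroid) and -0.037 (stromal). With quantile normalization they were -0.16 (mesenchymal), -0.34 (SMAD) and -0.070 (blood). With 1 array left out they ran from -0.38 to -0.15 (mesenchymal), -0.29 to -0.011 (other EMT factors), -0.13 to 0.18 (SMAD), -0.37 to -0.022 (zinc finger homeobox), -0.35 to -0.094 (blood), -0.36 to 0.024 (natural killer and T) and -0.48 to -0.20 (stromal). Over all probe sets tested the median was -0.0067 with spread as covariate, against -0.089 in the reported fit. The cause of these changes was not tested.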
